A study of Mus musculus with 14 samples.

Results

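Glut_5 is one of 11 neuron clusters among the 21 cell types that the authors labeled in the brain nuclei of the series. Its members are the nuclei whose deposited cell type is Glut_5, and the suffix of each barcode gives the library. There were 2109 such nuclei among 31324 brain nuclei, 1858 of 16649 in the control library and 251 of 14675 in the knockout library. The knockout library (CKO) came from mice that carry an endothelial tamoxifen-inducible Cre (VEcadCreER, a Cdh5 promoter) with 1 conditional and 1 null allele of Tgfbr1, the type 1 TGF-beta receptor. The null allele is carried by neurons as well as by endothelial cells. Cre was induced with 4-hydroxytamoxifen between postnatal days 3 and 5. Vascular fragments from 2 brains were pooled for each library at postnatal day 14 by the methods text, whereas the series text calls the animals young adults. The control is described as wild type or phenotypically wild type, a term that for the study's retinas typically meant Cdh5CreER with 1 conditional and 1 wild-type allele of Tgfbr1 or Tgfbr2. Nuclear RNA was counted as unique molecular identifiers (UMIs).

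Cerebellar granule neurons are small glutamatergic neurons that arise from dividing precursors at the surface of the cerebellum after birth and migrate inward as they mature. Mature granule neurons carry the GABA-A receptor subunit encoded by Gabra6, and their axons excite Purkinje neurons through synapses that use cerebellin. Dcx, which encodes a microtubule-binding protein, is transcribed in migrating young neurons.

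The libraries held 1 sample for each genotype, so no replicate check, test or standard error was possible. Intervals below are exact 95% intervals and cover counting error alone. Summed over Glut_5 nuclei, the control library held 1594661 UMIs and the CKO library 174953, a ratio of 9.11. The median nucleus held 713 UMIs in control and 502 in CKO. These medians lay below those of the 10 other neuron clusters, which ran from 963 to 6480.5 in control and from 666 to 2750 in CKO. A count of 3 UMIs corresponds to 1.88 CPM (UMIs per 1000000 UMIs) in control Glut_5 and 17.1 CPM in CKO Glut_5. Across the libraries, 2 barcode sequences occurred in both, of which 0 were Glut_5 in both and 1 was Glut_5 in at least 1 library.

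The libraries differed in the sex of their nuclei. Xist, the noncoding RNA of the inactive X chromosome, gave 5048 UMIs in control Glut_5 and 0 in CKO Glut_5, at least 185-fold lower in CKO. The Y chromosome genes Uty, Ddx3y, Kdm5d and Eif2s3y together gave 30 UMIs in control Glut_5 (18.8 CPM) and 44 in CKO Glut_5 (251 CPM). Of the 1858 control nuclei, 1198 held a UMI of Xist, 24 held a Y chromosome UMI, 6 held both and 642 held neither. Of the 251 CKO nuclei, 0 held Xist and 31 held a Y chromosome UMI. The other neuron clusters of the control library carried both kinds of RNA, with Xist in 4192 and Y chromosome UMIs in 1788 of 6371 nuclei. In CKO the other neuron clusters held Xist in 13 and Y chromosome UMIs in 3929 of 8115 nuclei. The control over CKO ratio of Y chromosome CPM was 0.0748 in Glut_5 (0.0454 to 0.122) and 0.400 in the other neuron clusters pooled (0.386 to 0.415). It was the lowest ratio of the 21 cell types, followed by oligodendrocyte precursors (OPCs) at 0.280. Sex, animal and genotype cannot be told apart in Glut_5.

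Which neurons Glut_5 holds was asked with marker lists. Since the clusters were made from these genes, the levels describe the cluster and are no test. General neuron genes were detected for 9 of 9 members in both libraries at 10 CPM or more, with a summed level of 25893 CPM in control and 23578 CPM in CKO. Of the 15 cerebellar granule neuron markers, 14 reached 10 CPM in both libraries and 12 were higher in Glut_5 than in any other neuron cluster of the same library. Their summed level was 13393 CPM in control and 12535 CPM in CKO, a ratio of 0.936 (0.895 to 0.978). The most abundant was Chn2, which encodes a Rac-inactivating protein, with 5456 UMIs in control and 574 in CKO. Rasal1, a Ras-inactivating protein gene, had 0 UMIs in both libraries.

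Gabra6 was at 1307 CPM in control Glut_5 and 1166 CPM in CKO Glut_5, a ratio of 0.892 (0.769 to 1.03). The next highest neuron cluster was GABA_9 in control, at 51.9 CPM, and GABA_22 in CKO, at 89.5 CPM. Fat2, an atypical cadherin of granule neuron axons, was at 1137 and 1160 CPM in the same order, where the next neuron cluster had 36.3 and 134 CPM. Pax6, a transcription factor that granule neurons keep from the precursor stage, was at 624 and 657 CPM beside 47.4 and 67.1 CPM in the next neuron cluster. Cbln3, a cerebellin made by granule neurons, was at 125 and 109 CPM. Tiam1, a Rac activator, was the exception among the abundant markers, at 448 and 229 CPM in Glut_5 and 504 and 716 CPM in GABA_22. The transcription factor genes Neurod1, Zic1 and Etv1 and the secreted protein gene Reln were at 830, 645, 1654 and 2824 CPM in control Glut_5. In CKO Glut_5 they were at 686, 674, 1600 and 2612 CPM.

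**Figure D1:**
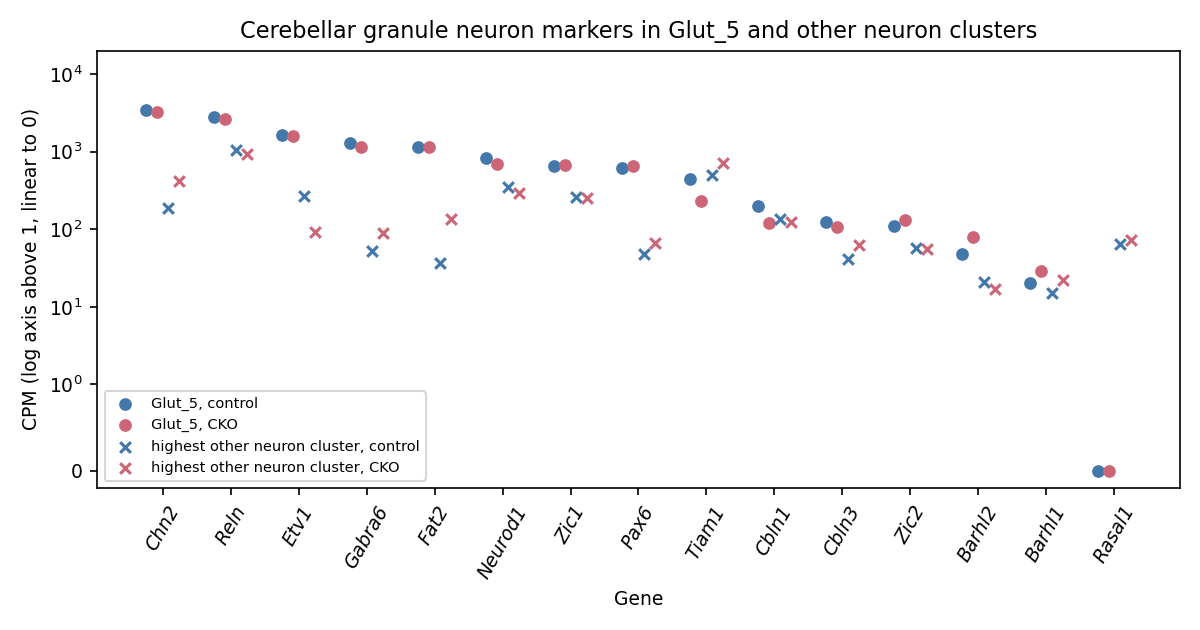
CPM (log axis above 1) of the 15 cerebellar granule neuron markers in Glut_5 (circles) of the control (blue) and CKO (red) libraries, beside the highest other neuron cluster of the same library (crosses). In both libraries Gabra6, Fat2 and Pax6 stand above the crosses, Tiam1 stands below them and Rasal1 is at 0 in Glut_5.

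By nuclei, Gabra6 was detected in 57.8% of control Glut_5 (55.5% to 60.1%) and 47.4% of CKO Glut_5 (41.1% to 53.8%). In oligodendrocytes, which should lack it, the shares were 4.31% at a median of 2328 UMIs and 0.156% at a median of 954.5 UMIs. With every nucleus thinned to 300 UMIs, the shares were 32.9% and 29.9% in Glut_5 and 0.829% and 0% in oligodendrocytes. Fat2 was detected in 57.6% and 51.4% of Glut_5 nuclei, and in 29.2% and 33.5% after thinning. Gabra6 also occurred outside Glut_5 at 30.3 and 1.37 CPM in oligodendrocytes, 19.1 and 5.69 CPM in endothelial cells and 136 and 311 CPM in OPCs of control and CKO, respectively. Other granule neuron markers occurred outside neurons too. In OPCs, Fat2 was at 82.6 and 268 CPM and Pax6 at 78.7 and 215 CPM. Reln was at 376 and 771 CPM there, and Chn2 at 584 and 1140 CPM. Pax6 was at 202 and 281 CPM in astrocytes. Zic1 in pericytes, at 895 and 760 CPM (109 and 7 UMIs), was above its level in Glut_5.

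The vesicular glutamate transporter gene Slc17a7 had 180 UMIs in control Glut_5 and 4 in CKO Glut_5, detected in 8.99% (7.73% to 10.4%) and 1.59% (0.436% to 4.03%) of nuclei. In oligodendrocytes it was detected in 0.498% of control nuclei and 0 of 640 CKO nuclei, with an upper bound of 0.575%. Its level in CKO was 22.9 CPM in Glut_5 (6.23 to 58.5), 33.5 CPM in OPCs, 31.0 CPM in vascular smooth muscle cells, 28.9 CPM in GABA_9 and 0 CPM in oligodendrocytes (upper bound 5.06). The 4 UMIs of CKO Glut_5 therefore do not stand above the level in OPCs, vascular smooth muscle cells or GABA_9. Their interval lies above the bound in oligodendrocytes and above that of endothelial cells, which had 1.17 CPM (0.504 to 2.30). After thinning, Slc17a7 was in 3.44% and 0.797% of Glut_5 nuclei, in 3.93% and 5.16% of Glut_0 nuclei and in 19.8% and 14.8% of Glut_20 nuclei. By level, control Glut_5 had 113 CPM, beside 118 CPM in Glut_0 and 5.05 CPM in Glut_1 of the control library. The 3 vesicular glutamate transporter genes together had 261 and 8 UMIs, a ratio of 0.279 (0.119 to 0.559). The 7 GABAergic markers had 26 and 5 UMIs, the cholinergic markers 0 and 0, and the glycinergic and monoaminergic markers 1 and 0 each.

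Among markers of other regions, the hypothalamic list had 2 UMIs in control Glut_5 and 0 in CKO Glut_5, and the pons or medulla list 19 and 0. Of the thalamic list, the nuclear receptor gene Rora gave 10626 of 10661 UMIs in control and 1328 of 1347 in CKO. Of the neocortical list, Arpp21 gave 5664 of 6090 and 619 of 662 UMIs. Likewise, Zfpm2 gave 6207 of 6277 control UMIs of the cortical layer 6 list, Synpr 2753 of 2782 of the claustrum list and Pde10a 3013 of 3015 of the striatal list. The remaining members of some of these lists were higher in CKO. Without Pde10a the striatal list had 2 and 18 UMIs, a ratio of 82.0 (19.6 to 729), without Zfpm2 the layer 6 list had 70 and 27, a ratio of 3.52 (2.17 to 5.55), and without Rora the thalamic list had 35 and 19, a ratio of 4.95 (2.67 to 8.89). Without Synpr the claustrum list had 29 and 3 UMIs, a ratio of 0.943 (0.184 to 3.04), and without Arpp21 the neocortical list had 426 and 43, with a ratio between 0.656 and 1.26. The hippocampal CA3 list had 3827 control UMIs, of which Zbtb20 gave 2000. The proliferating precursor list had 7 and 9 UMIs (4.39 and 51.4 CPM), a ratio of 11.7 (3.88 to 37.0), also higher in CKO. The class named from the marker lists is cerebellar granule neurons.

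The 20 genes highest in Glut_5 over every other neuron cluster were led by Nxn, Svep1, A730004F24Rik, Rps6ka1, Gm2694, Lurap1, Gabra6, Uncx, Shf and Ltbp2. Nxn, a thioredoxin-like enzyme gene, was at 452 CPM in control and 554 CPM in CKO, 18.5 and 19.1 times the next neuron cluster. The others of the 20 were 4930594M22Rik, Slc22a4, Cadps2, Pxn, Ptpn22, Gm42912, Gm29521, Pax6, Khnyn and Gm31615. Cadps2, which encodes an activator of dense-core vesicle release, was the most abundant, at 5811 and 5739 CPM. Of the 20, the lowest CKO over control ratio was that of Svep1, 0.640 (0.359 to 1.06), and the highest that of Rps6ka1, 1.43 (1.07 to 1.87).

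Correlated over the 1482 genes with at least 100 UMIs, control Glut_5 was most like OPCs (Pearson r of log2 CPM 0.559), GABA_9 (0.543) and Glut_14 (0.525). CKO Glut_5 was most like OPCs (0.739), GABA_22 (0.577) and microglia (0.568). Genes are not independent replicates, and the clusters of one library share its free RNA and preparation.

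How many Glut_5 nuclei each library gave is the first comparison between the libraries. Glut_5 made up 11.2% of control nuclei (10.7% to 11.6%) and 1.71% of CKO nuclei (1.51% to 1.93%). The control over CKO ratio of 6.52 ranked 3 among the 21 cell types, after microglia at 10.3 and pericytes at 8.05. It was followed by vascular smooth muscle cells at 3.84 and GABA_22 at 3.29, and the other glutamatergic label of low depth, Glut_20, stood at 1.71. Of neuron nuclei alone, Glut_5 made up 22.6% in control and 3.00% in CKO. Genotype, the pair of brains in each pool and the recovery of nuclei cannot be told apart.

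Which genes set the libraries apart within Glut_5 was asked with the ratio of CKO over control CPM. Among the 1482 genes with at least 100 UMIs, of 11738 with at least 1, the median log2 ratio was -0.06, with quartiles of -0.42 and 0.32. CKO was at least 2-fold higher for 58 genes (3.91%) and at least 2-fold lower for 182 genes (12.3%). These counts moved by more than 1.5 times with the nuclei and genes taken. They were 413 and 439 at a minimum of 30 UMIs and 1 and 42 at 300 UMIs, and 17 and 285 without the nuclei of sub-cluster 6 (described below), of which 9 and 147 were among the first counts. Leaving out nuclei with 3 or more UMIs of other cell types' markers gave 17 and 98, of which 1 and 46 were among the first counts. By the scarce markers alone the counts stayed within 1.5 times, at 44 and 203, of which 36 and 168 were among the first counts. The interval left out a ratio of 1 for 58 of the higher and 169 of the lower genes. With at least 100 UMIs, a ratio of at least 2 places the interval above 1 by itself. The 58 of 58 was thus fixed by the filter and is no support for the higher genes. A gene of 100 UMIs with a ratio of 1 has 9.89 UMIs in CKO. What part counting error plays in the 2 counts was not tested. In the 10 other neuron clusters pooled, 0 of 1469 genes (0%) were at least 2-fold higher and 40 (2.72%) at least 2-fold lower. That pool held 2.99e+07 control and 1.97e+07 CKO UMIs, far more than Glut_5, so its ratios carry less counting error. Shares at matched depth are given below.

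In the other neuron clusters, 56 of the 58 higher genes and 167 of the 182 lower genes of Glut_5 had ratios within 1.5-fold of 1 (96.6% and 91.8%, beside 92.7% of all genes). Their median log2 ratios there were -0.06 and 0.07, beside -0.02 for all genes. In control Glut_5, 53 of the 58 higher genes lay below the level of the other neuron clusters (91.4%, beside 36.0% of all genes). In CKO Glut_5, 157 of the 182 lower genes lay below that level (86.3%, beside 39.5% of all genes). These shares use the same Glut_5 values as the ratios and are no test.

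**Figure D2:**
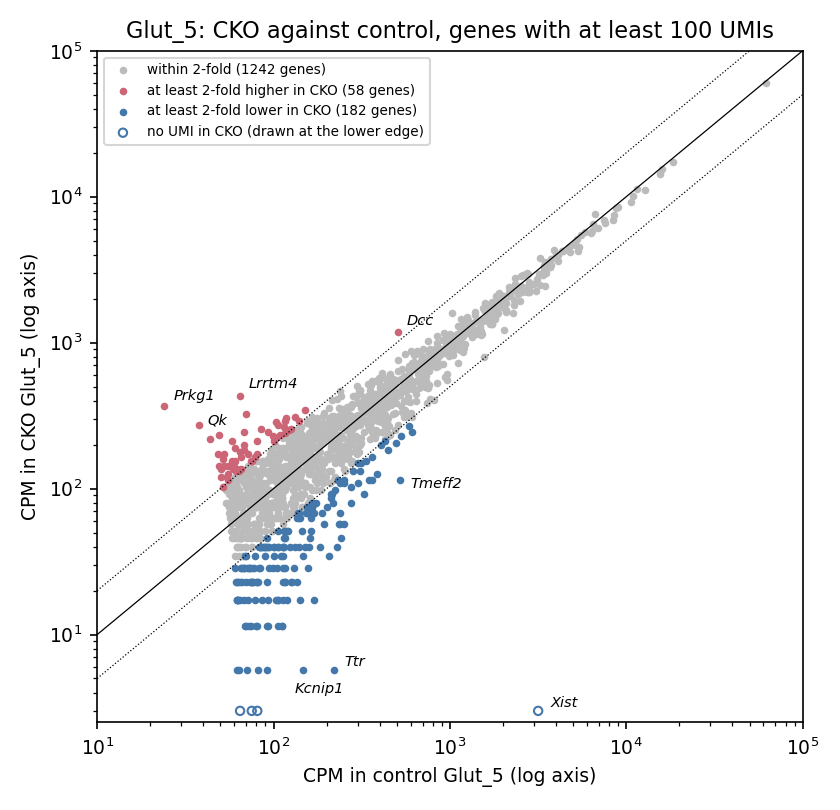
CPM in CKO Glut_5 (vertical, log axis) against CPM in control Glut_5 (horizontal, log axis) for the 1482 genes with at least 100 UMIs. The solid line marks equal levels and the dotted lines 2-fold; 58 genes lie at least 2-fold higher in CKO, 182 at least 2-fold lower, and 4 without a UMI in CKO are drawn as open circles at the lower edge.

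When each neuron cluster and library was thinned to 174953 UMIs, 14 of 541 Glut_5 genes were past 2-fold (2.59%), 1 higher and 13 lower. The 9 other neuron clusters that held enough UMIs ran from 0.346% to 2.09%, with a median of 0.685%. The highest of these was Glut_20, also a cluster of few UMIs per nucleus. GABA_22 held 44688 CKO UMIs and was left out.

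The 15 genes with the highest lower bound of the ratio included Prkg1, Qk, Lrrtm4, Rbm39, Zmynd11, Stox2, Igf1r, Fnbp4, Spag9, Gbf1, Arih1, Dcc, Anks1 and Chd6. Prkg1, a cGMP-dependent kinase gene on chromosome 19 (30541889 to 31742479, GRCm39), had 38 UMIs in control (23.8 CPM) and 64 in CKO (366 CPM). Its ratio was 15.4 (10.1 to 23.6). The other neuron clusters had 1059 CPM in control and 1176 CPM in CKO, so Glut_5 of both libraries lay below them.

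Qk, which encodes an RNA-binding protein of splicing and RNA transport, was at 37.6 CPM in control and 274 CPM in CKO, a ratio of 7.29 (4.88 to 10.8). Lrrtm4, a postsynaptic adhesion gene on chromosome 6 (79995860 to 80787124), was at 64.6 CPM in control and 429 CPM in CKO. Its ratio was 6.64 (4.86 to 9.02) in Glut_5 and 1.09 in the other neuron clusters, which had 4923 and 5371 CPM. Dcc, a netrin receptor gene, was the most abundant of the 15, with 809 UMIs in control (507 CPM) and 208 in CKO (1189 CPM). Its ratio was 2.34 (2.00 to 2.73), higher in CKO. Most Dcc UMIs of control and most of CKO came from different sub-clusters of nuclei (described below).

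The splicing gene Rbm39, the chromatin reader gene Zmynd11 and the transcription factor gene Stox2 had ratios of 4.64, 4.95 and 4.79. For the growth factor receptor gene Igf1r the ratio was 3.63 (2.41 to 5.36). Over the 15 genes the ratios in Glut_5 ran from 2.34 to 15.4. In the other neuron clusters they ran from 0.567 (Igf1r) to 1.11 (Prkg1), and 14 of 15 were within 1.5-fold of 1.

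The ratios of some higher genes depended on 1 group of nuclei. Of the 6 sub-clusters made from Glut_5 nuclei without X and Y chromosome genes, sub-cluster 6 held 94 control nuclei (5.06%) and 81 CKO nuclei (32.3%). Their median depths were 1618.5 and 695 UMIs, above the 713 and 502 of all Glut_5 nuclei. It held 48.6% of the CKO UMIs of Glut_5 and 191872 of the 1594661 control UMIs. Of the UMIs of the 58 higher genes it held 72.5% in CKO and 29.0% in control. Of Prkg1 it held 62 of 64 CKO UMIs, of Qk 47 of 48, of Igf1r 36 of 37 and of Dcc 173 of 208. Control Dcc lay mostly elsewhere, with 136 of 809 UMIs in sub-cluster 6. Sub-clusters 1, 2 and 3 held 1, 14 and 2 control UMIs of Dcc.

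Within sub-cluster 6 the ratio was 4.83 for Prkg1 (3.06 to 7.78), 2.95 for Qk (1.87 to 4.68) and 2.65 for Lrrtm4 (1.84 to 3.85). It was 1.87 for Rbm39 (1.25 to 2.79), 1.48 for Igf1r (0.943 to 2.29) and 2.87 for Dcc (2.28 to 3.62). Without sub-cluster 6 the ratio of Dcc was 0.811 (0.560 to 1.14), and Qk and Igf1r had 1 CKO UMI each, with ratios of 0.650 (0.0158 to 3.98) and 0.410 (0.0101 to 2.43). Prkg1 had 2 CKO UMIs without it, a ratio of 3.46 (0.364 to 16.7). Zmynd11 had a ratio of 6.89 without it (3.79 to 12.1) and 1.59 within it (0.835 to 2.97). Of the 58 higher genes, 14 were at least 2-fold higher within sub-cluster 6 and 20 without it, and of the 15 with the highest lower bound, 7 and 11. Of the 182 lower genes, 104 were at least 2-fold lower within it and 175 without it. These sub-clusters were made from genes that include the ones compared, so nuclei high in them were grouped together.

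The 15 genes with the lowest upper bound were Xist, Ttr, Kcnip1, Spata13, Pcdhac1, Adamtsl1, Gm20642, Tmeff2, Elapor2, Asxl3, Kndc1, Slc7a14, Scn1a, Jakmip3 and 5330434G04Rik. Of the 1482 genes, 4 had 0 UMIs in CKO Glut_5 and 0 genes had 0 UMIs in control Glut_5. Beside Xist, the 4 were the GTPase activator gene Spata13 (129 UMIs in control), the protocadherin gene Pcdhac1 (120) and the noncoding RNA Gm20642 (103). Against a floor of 3 UMIs they were at least 4.72-fold, 4.39-fold and 3.77-fold lower in CKO. Pcdhac1 overlaps other Pcdha genes on the same strand, so its UMIs depend on how reads were assigned among them.

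Ttr, which encodes the thyroxine carrier made by choroid plexus, had 349 UMIs in control Glut_5 (219 CPM) and 1 in CKO Glut_5 (5.72 CPM), a ratio of 0.0261 (0.000659 to 0.146). In the other neuron clusters it was at 106 and 39.1 CPM, also lower in CKO. Of the 349 control UMIs of Ttr in Glut_5, 208 lay in sub-cluster 3. That sub-cluster held 346 control and 53 CKO nuclei, and 0 CKO UMIs of Ttr. Kcnip1, a subunit of A-type potassium channels on chromosome 11 (33576285 to 33943152), had 235 UMIs in control (147 CPM) and 1 in CKO (5.72 CPM). Its ratio was 0.0388 (0.000978 to 0.218) in Glut_5 and 1.07 in the other neuron clusters.

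Tmeff2, a transmembrane protein gene with follistatin domains on chromosome 1 (50939803 to 51227332), was at 522 CPM in control and 114 CPM in CKO. It was the most abundant of the lower genes after Xist, with 832 and 20 UMIs, and its ratio was 0.219 (0.133 to 0.341). The sodium channel gene Scn1a had 179 and 2 UMIs, a ratio of 0.102 (0.0122 to 0.373). The amino acid transporter gene Slc7a14 had 363 and 7 UMIs, a ratio of 0.176 (0.0702 to 0.366), and the guanine nucleotide exchange factor gene Kndc1 had 329 and 6, a ratio of 0.166 (0.0606 to 0.366). In the other neuron clusters 11 of the 15 were within 1.5-fold of 1.

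**Figure D3:**
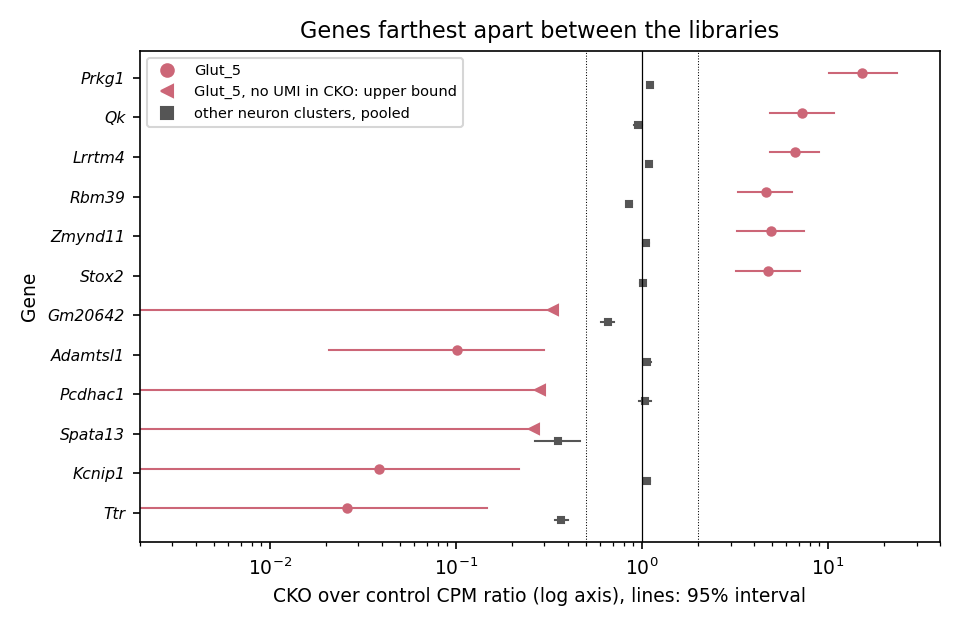
Ratio of CKO over control CPM (log axis) of the 6 genes with the highest lower bound and the 6 with the lowest upper bound, without Xist, in Glut_5 (red, with triangles at the upper bound where CKO had no UMI) and in the other neuron clusters pooled (gray squares). Lines are 95% intervals for counting error, ending at the axis edge where they run past it; in the other neuron clusters Ttr, Spata13 and Gm20642 lie beyond 1.5-fold of 1.

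Because the libraries differed in sex, the ratios were also taken with the control nuclei divided by Xist. The 660 control nuclei without a Xist UMI had a median of 657 UMIs and the 1198 with one a median of 740.5. All 15 higher genes were at least 2-fold higher in CKO against either set. The 14 lower genes other than Xist were at least 2-fold lower against either set. These genes had been picked from the same control and CKO nuclei, and both sets were compared with the same CKO nuclei. The agreement is therefore no separate evidence. For Kcnip1 the ratios were 0.0321 and 0.0427 against nuclei without and with Xist. For Dcc they were 2.06 and 2.49. Other ratios moved more, as for Prkg1 (59.6 and 11.6), Ttr (0.0717 and 0.0204), Spag9 (6.99 and 2.43) and Gbf1 (6.99 and 2.67). The nuclei without Xist also held few Y chromosome UMIs, so this division does not give a control of the other sex.

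Tgfbr1 had 8 UMIs in control Glut_5 and 2 in CKO Glut_5, a ratio of 2.28 (0.236 to 11.4). A difference in Tgfbr1 was not detectable at this depth. Tgfbr2 had 0 and 1 UMIs. Of the TGF-beta and activin list, 2 of 22 genes had at least 100 UMIs, the coreceptor gene Tgfbr3 with a ratio of 0.849 (0.663 to 1.07) and the BMP receptor gene Acvr1 with a ratio of 1.09 (0.716 to 1.61).

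Functional gene lists were described by their members with at least 100 UMIs, beside the median of -0.06 over all genes. Members past 2-fold can be read beside 3.91% higher and 12.3% lower among all genes. The AMPA receptor list had 2 such genes, 0 past 2-fold and a median log2 ratio of 0.00. The NMDA receptor list had 4, 0 past 2-fold and a median of -0.32. The kainate receptor subunit gene Grik1 had 99 and 4 UMIs, a ratio of 0.368 (0.0984 to 0.973). The GABA-A receptor list had 7, with a median of -0.16 and Gabra2 lower. Gabra2 had 254 and 7 UMIs, a ratio of 0.251, with an upper bound of 0.525.

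The potassium channel list had 13 genes, with a median of -0.28 and Kcnip1 and Kcnn2 lower. The sodium and HCN channel list had 5, with a median of -0.35 and Scn1a lower. The calcium channel list had 12, with a median of -0.16 and Cacna1b lower, at 310 and 10 UMIs. The synaptic adhesion list had 18, with a median of -0.14 and Lrrtm4 higher. The classical cadherin list had 8, 0 past 2-fold and a median of -0.03. The axon guidance list had 11, with a median of -0.26, Dcc higher and the netrin receptor gene Unc5d and the semaphorin gene Sema3a lower. Unc5d had 615 and 22 UMIs, a ratio of 0.326 (0.203 to 0.498). The vesicle release list had 14, with a median of -0.29 and Sv2c and Unc13a lower.

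The neuronal maturation list had 8 genes with a median of -0.22, and the lower ones were Dcx and the growth cone gene Gap43. Dcx had 164 UMIs in control and 3 in CKO, a ratio of 0.167 (0.0340 to 0.496). Gap43 had 291 and 7 UMIs, a ratio of 0.219 (0.0874 to 0.458). The calcium-binding list had 5 genes, with a median of -0.09 and Hpcal1 lower. The nuclear noncoding RNA list had 5 genes, 0 past 2-fold and a median of 0.00. The sex chromosome list had 2 genes, of which Xist was lower. The glycolysis gene Eno2 (ratio 0.393), the cerebellin gene Cbln1 (0.606) and an interferon list gene (1.25) were the single genes of their lists with at least 100 UMIs. The ribosomal list, chosen by symbol prefix, had 3 such genes, 0 past 2-fold, and all 3 were S6 kinase genes (Rps6ka1, Rps6ka3 and Rps6ka5). The immediate early, heat shock and mitochondrial lists had 0 such genes. Summed over all members, the immediate early list had 25 UMIs in control (15.7 CPM) and 11 in CKO (62.9 CPM), a ratio of 4.01 (1.78 to 8.45), higher in CKO. The mitochondrial list had 40 and 0 UMIs, a ratio with an upper bound of 0.881, and the heat shock list 6 and 0, with an upper bound of 7.74.

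Markers of other cell types also differed between the libraries in Glut_5. The 9 endothelial markers had 25 UMIs in control (15.7 CPM) and 14 in CKO (80.0 CPM), with 5 of 9 at 0 in each library and Flt1 and Mecom the most abundant. The 7 OPC markers had 25 and 31 UMIs (15.7 and 177 CPM), most of them from Lhfpl3, with 4 of 7 at 0 in each library. The 8 pericyte markers had 13 and 15 UMIs (8.15 and 85.7 CPM), mostly Atp13a5 in CKO. The 5 Bergmann glia markers had 6 and 17 UMIs (3.76 and 97.2 CPM), and the 8 microglial markers 4 and 9 (2.51 and 51.4 CPM). All of these were higher in CKO. The fibroblast list had 0 and 3 UMIs.

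The red blood cell list and Ttr were higher in control. The choroid plexus list had 358 and 7 UMIs, of which Ttr gave 349 and 1. The 5 other choroid plexus markers had 9 and 6 UMIs (5.64 and 34.3 CPM), a ratio of 6.08 (1.78 to 19.1). The red blood cell list had 158 and 1 UMIs. The smooth muscle list had 30 and 0 UMIs, a ratio with an upper bound of 1.19. The astrocyte list had 3833 and 428 UMIs (2404 and 2446 CPM), of which the bicarbonate transporter gene Slc4a4 gave 3818 and 394. The 8 other astrocyte markers had 15 and 34 UMIs (9.41 and 194 CPM), higher in CKO. The oligodendrocyte list had 1567 and 180 UMIs (983 and 1029 CPM), of which the transcription factor gene St18 gave 1538 and 177. The ependymal list had 0 and 0. What part RNA from other cells plays in the ratios was not tested.

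Within the control library, Glut_5 nuclei varied in markers of maturity. Sub-cluster 1 held 560 control nuclei (30.1%) and 50 CKO nuclei (19.9%), sub-cluster 4 held 282 (15.2%) and 2 (0.797%), and sub-cluster 5 held 231 (12.4%) and 6 (2.39%). Some genes lower in CKO led sub-clusters with few CKO nuclei, as given next by UMIs over both libraries. Gabra2 had 213 UMIs in sub-cluster 4 and 48 outside it, and Dcx 132 and 35. Kcnip1 had 134 UMIs in sub-cluster 5 and 102 outside it, Kcnn2 90 and 128, and Scn1a 71 and 110. Of the 615 control UMIs of Unc5d, 428 lay in sub-cluster 4. Of the 129 control UMIs of Spata13, 22 lay in sub-cluster 2, 6 in sub-cluster 6 and 0 in sub-clusters 1 and 3. In control nuclei of sub-cluster 1, Gabra6 was at 1782 CPM, Tiam1 at 708 CPM, Pax6 at 659 CPM and Dcx at 0. In those of sub-cluster 4, Gabra6 was at 198 CPM, Tiam1 at 18.8 CPM, Pax6 at 1063 CPM and Dcx at 621 CPM. The 8 immature neuron markers summed to 1100 CPM in sub-cluster 4 and 7.35 CPM in sub-cluster 1. Over all Glut_5 nuclei they had 325 UMIs in control (204 CPM) and 18 in CKO (103 CPM), a ratio of 0.505 (0.295 to 0.811). Without Dcx, the 7 others had 161 and 15 UMIs, a ratio of 0.849 (0.464 to 1.44).

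Genes that differ between the libraries shape these sub-clusters, so the makeup was also taken from sub-clusters made from the 946 genes within 1.5-fold of 1, without X, Y and mitochondrial genes. This choice leaves out the genes that a difference in makeup would move, and so brings the libraries closer. There were 6 of these sub-clusters. Sub-cluster 1 held 499 control nuclei (26.9%, 24.9% to 28.9%) and 105 CKO nuclei (41.8%, 35.7% to 48.2%). Sub-cluster 2 held 455 (24.5%) and 41 (16.3%), and sub-cluster 3 held 403 (21.7%) and 50 (19.9%). Sub-cluster 5, with median depths of 1835 and 1722.5 UMIs, held 186 control nuclei (10.0%, 8.68% to 11.5%) and 30 of the 251 CKO nuclei (11.95%, 8.21% to 16.6%). It was led by ENSMUSG00000095041, Rbm26, Trip12 and Rbm39, which were also among the 10 leading genes of sub-cluster 6 of the first set, where the shares were 5.06% and 32.3%. At Leiden resolution 1 of the first set, a sub-cluster led by Prkg1, Qk and Lrrtm4 held 9.42% of control and 43.0% of CKO nuclei. How far the libraries differ in the share of nuclei grouped by such genes thus varied with the clustering. Whether these sub-clusters hold the same nuclei was not tested.

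Sub-clusters 4 and 6 of this set were low in Gabra6. Sub-cluster 4 held 220 control nuclei (11.8%, 10.4% to 13.4%) and 22 CKO nuclei (8.76%, 5.57% to 13.0%), with Gabra6 at 132 and 309 CPM. Sub-cluster 6 held 95 control nuclei (5.11%, 4.16% to 6.21%) and 3 CKO nuclei (1.20%, 0.247% to 3.45%). Its control nuclei had Gabra6 at 18.4 CPM, Pax6 at 1712 CPM and immature neuron markers at 2283 CPM. Dcc was among its leading genes, with 534 UMIs in it and 483 outside it over both libraries. The nuclei of a library share its brains, so these intervals do not carry over to other animals.

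Ratios were also taken within the 4 of the first 6 sub-clusters that held at least 20 nuclei of each library. The genes had been picked from the same nuclei, so the directions are no separate evidence. Where a gene had at least 10 UMIs in a sub-cluster, the 15 lower genes gave 49 values, of which 33 had 0 UMIs in CKO and 32 had an interval below 1. The 15 higher genes gave 39 values, of which 23 had an interval above 1. Igf1r and Chd6 had 0 CKO UMIs in sub-cluster 1, beside 11 and 10 in control, and Prkg1 and Qk had enough UMIs in sub-cluster 6 alone.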

How the data were processed

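Single-nucleus RNA from 2 brain libraries, 1 control and 1 CKO, was analysed. The deposited matrix holds counts (UMIs per gene and nucleus). The authors made it with PIPseeker 3.3.0 and a GRCm39 index (the submitters' processing notes list mm10 and Seurat), removed background with CellBender 0.3.2, removed doublets with SOLO and removed mixed nuclei by hand. The deposited cell type gave the members. Retina libraries were not analysed here.

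UMIs were summed over the Glut_5 nuclei of each library and divided by their total (CPM). Genes with at least 100 UMIs over both libraries were compared, and a ratio of at least 2 or at most 0.5 was counted. Log2 ratios had 0.5 UMIs added. Ratios carry conditional binomial, levels Poisson and shares Clopper-Pearson 95% intervals. Levels at 0 were read against a floor of 3 UMIs over the library's Glut_5 nuclei. Named were the 15 genes with the highest lower bound, the 15 with the lowest upper bound, the 20 highest over other neuron clusters, Tgfbr1, Tgfbr2, Xist, Y chromosome genes and members of marker and gene lists. Members and lists were chosen with earlier results of these data known. Sub-clusters were made with the Leiden method (log-normalized counts, 2000 variable genes, 30 components, 15 neighbors, resolution 0.5). Positions came from GENCODE vM39 (29 of 30 highest and lowest genes matched, Qk did not). A few genes and lists are not reported here. The code was tested on simulated data. Alternatives changed the count minimum, scaling (TMM by edgeR 4.0.16 in R 4.3.3, median of ratios), nuclei, weights, depth and sub-clusters. Counts were handled with scanpy 1.11.5 and anndata 0.12.19, graphs with igraph 0.11.9, intervals with scipy 1.17.1, tables with pandas 2.3.3 over numpy 2.4.6, and plots with matplotlib 3.10.9, under Python 3.11.15.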

Additional observations from a re-analysis of the deposited data

How the results depend on the processing

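The counts of genes past 2-fold (58 higher and 182 lower in CKO) depended on the count minimum. They were 413 and 439 of 2784 genes at 30 UMIs and 1 and 42 of 751 at 300 UMIs. Nuclei with at least 1000 UMIs (392 control, 32 CKO) gave 22 and 55 of 1011 genes, of which 13 and 33 were among those of all nuclei. Equal weight for each nucleus gave 99 higher. Leaving out nuclei with 3 or more UMIs of other cell types' markers (925 and 140 nuclei left) gave 17 and 98 of 795 genes, of which 1 and 46 were among those of all nuclei. These 83 markers include Slc4a4 and St18, which are abundant in Glut_5 itself, so this can also drop nuclei by their own genes and depth. Thinning the control library to the CKO total gave 1 and 13 of 546. Fewer genes were tested in these settings other than 30 UMIs and equal weight; further causes were not tested.

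Some alternatives were chosen after seeing the data. Against control nuclei without Xist the counts were 18 and 36 of 772 genes, and against those with Xist 25 higher of 1274. Leaving out nuclei by the 80 scarce markers alone (1836 and 236 nuclei left) gave 44 and 203, and leaving out sub-cluster 6 gave 17 and 285 of 1252, of which 9 and 147 were among those of all nuclei. Equal weight for sub-clusters on genes within 1.5-fold gave 73 and 225.

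Counts within 1.5 times were 71 and 170 with TMM, 74 and 165 with the median of ratios, 55 and 171 without X, Y and mitochondrial genes, 47 and 251 with equal weight for sub-clusters (22 and 164 among the original genes) and 58 and 169 with the interval. TMM moved log2 ratios by 0.05 and the median of ratios by 0.07. The median log2 ratio was 0.0641 at 30 UMIs.

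Shares of Glut_5 were 22.6% and 3.00% of neurons, 13.1% and 2.14% of nuclei other than endothelial cells, and 3.69% and 0.359% of nuclei with at least 1000 UMIs, where the ratio was 10.3. Control was higher in each. Named genes were also taken under TMM, with nuclei of at least 1000 UMIs and with equal weight for nuclei or for sub-clusters. They were taken as well without nuclei holding other types' markers. Of these 250 values, 52 lay outside the original interval. Reversal was checked only for the 30 highest and lowest genes, where 0 of 150 values reversed. Without sub-cluster 6, Dcc (0.811), Qk (0.650) and Igf1r (0.410) reversed. For the 30 highest and lowest genes, 145 of 150 were past 2-fold the same way. Of 63 list medians, 8 moved by over 0.1. Leiden resolution 1 gave 8 sub-clusters. The one led by Prkg1 held 9.42% of control and 43.0% of CKO nuclei, beside 5.06% and 32.3% at resolution 0.5.

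The 251 CKO nuclei and their 174953 UMIs limit every ratio, and 1 library for each genotype leaves the spread between animals unmeasured. No paired analysis was possible because each genotype had 1 library of pooled brains.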
